A study of Mus musculus with 6 samples.

Results

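Canonical Wnt signalling was followed here through 10 genes that sit at successive steps of the pathway, in BMEL cells, an immortalized mouse hepatoblast line, after transfection of a miR-337-3p mimic. The genes were Lgr4, Lgr5, Rnf43, Znrf3, Dvl3, Axin2, Tcf7, Tcf7l1, Tcf7l2 and Lef1. They were chosen by name, for their place in the pathway, and all 10 were found among the 30927 genes tested, each with 1 row on the array. Hepatoblasts are progenitors in the fetal liver that give rise to hepatocytes and to bile duct cells. The line came from the livers of wild-type CD1 mouse embryos at E12.5, and wells coated with collagen were plated with 50000 cells each. The 3 control samples received 500 ng of a negative control mimic (miRIDIAN Mimic Negative Control #1) and the other 3 samples received 500 ng of the mmu-miR-337-3p mimic, both for 48 h with a lipid reagent. The comparison asks which transcripts differ once miR-337-3p is raised in these cells. Whether replicates of a group were grown as separate cultures is not stated in the labels, and the p-values then speak of variation among these 6 samples, part or all of which could be technical.

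Wnt proteins bind Frizzled receptors and the co-receptors Lrp5 and Lrp6, and Dishevelled proteins such as Dvl3 then pass the signal to the complex of Axin, Apc and Gsk3b that otherwise marks beta-catenin for destruction. Stabilised beta-catenin enters the nucleus and binds the DNA-binding factors Tcf7, Tcf7l1, Tcf7l2 and Lef1, which without it hold target genes down together with corepressors of the Tle family. Rnf43 and Znrf3 are membrane ubiquitin ligases that remove Frizzled from the cell surface, and R-spondins, by joining Lgr4, Lgr5 or Lgr6 to these ligases, relieve that brake. In the liver the pathway is known for its role in hepatoblast growth and for setting the gene programme of hepatocytes around the central vein.

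The agent itself is a 22-base microRNA, and it is shown because its seed, bases 2 to 8, is what an Argonaute complex reads in a target transcript. The bases of the mature microRNA lie at chr12:109585850-109585871 on the plus strand of GRCm38.p6, in the Dlk1-Dio3 imprinted region. The sequence is that of RefSeq, 5′ to 3′, with the seed in capitals.
mmu-miR-337-3p: uCAGCUCCuauaugaugccuuu
The letters that pair with this seed in a transcript are GGAGCUG. Among the 1738 mature mouse microRNAs of the same table, 1, miR-337-3p itself, has this seed. Whether transcripts of the 10 genes hold such a site was not analysed here.

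TCF and LEF factors bind DNA at sites close to CTTTG followed by a pair of A or T bases in any order, and Tcf7l2 and Lef1 were the only members of the group with any of these letters in a promoter window. Windows from 250 bases before to 50 bases after each RefSeq start (GRCm38.p6) were searched on both strands. They matched 8 of the 10 genes with 14 windows, and Lgr5 and Znrf3 were not matched. A motif was present in 2 of the 14 windows (14.3%), against 16.9% of all 32851 windows, so the members' share lay near that of promoters in general. Both matches are shown, with the motif in capitals, as the places where these factors' own genes carry the letters that the factors read. The Lef1 match begins 147 bases before 1 of its 4 listed starts (chr3:131156136-131156165, plus strand) and is CTTTGTA on the opposite strand, and the Tcf7l2 match begins 14 bases before 1 of its 2 listed starts (chr19:55895291-55895320, plus strand).
Lef1: caacctcagaaTACAAAGtaggattgcatt
Tcf7l2: caaacaaaatatcaggCTTTGTTcttttga
A match is a description of the letters in these windows and not a site shown to be bound.

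Of the 10 genes, the R-spondin receptor gene Lgr4 fell after miR-337-3p mimic, and the transducer gene Dvl3 and the factor genes Tcf7 and Tcf7l1 rose. The threshold was an adjusted p of 0.05 (limma, with Benjamini-Hochberg adjustment over all genes tested), and these 4 passed it. Of all genes tested 3.57% passed, 1.89% rising and 1.68% falling. The 10 genes were chosen with earlier results of these data known, so their share is given as a description. Their median log2 difference was 0.22, with a range from -1.06 to 1.26, against a median of 0.02 over all genes tested. Values of the groups stood apart, with no overlap, for these 4 genes and overlapped for the other 6. Of all genes tested 19.6% stood apart, 11.2% with the mimic higher and 8.33% with it lower. The authors' deposited table, whose test uses each row's own spread alone, called none of the 10 at an FDR p-value under 0.05. Its smallest FDR p-value among them was 0.121, for Lgr4, and 4 of the 30927 genes (0.0129%) passed there. The authors' deposited table gave 4 of the 10 (Lgr4, Dvl3, Tcf7 and Tcf7l1) an unadjusted p-value under 0.05, as it did 13.1% of all genes tested. These were whole-culture extracts, in which fewer cells of a type and less RNA per cell cannot be told apart.

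**Figure D1:**
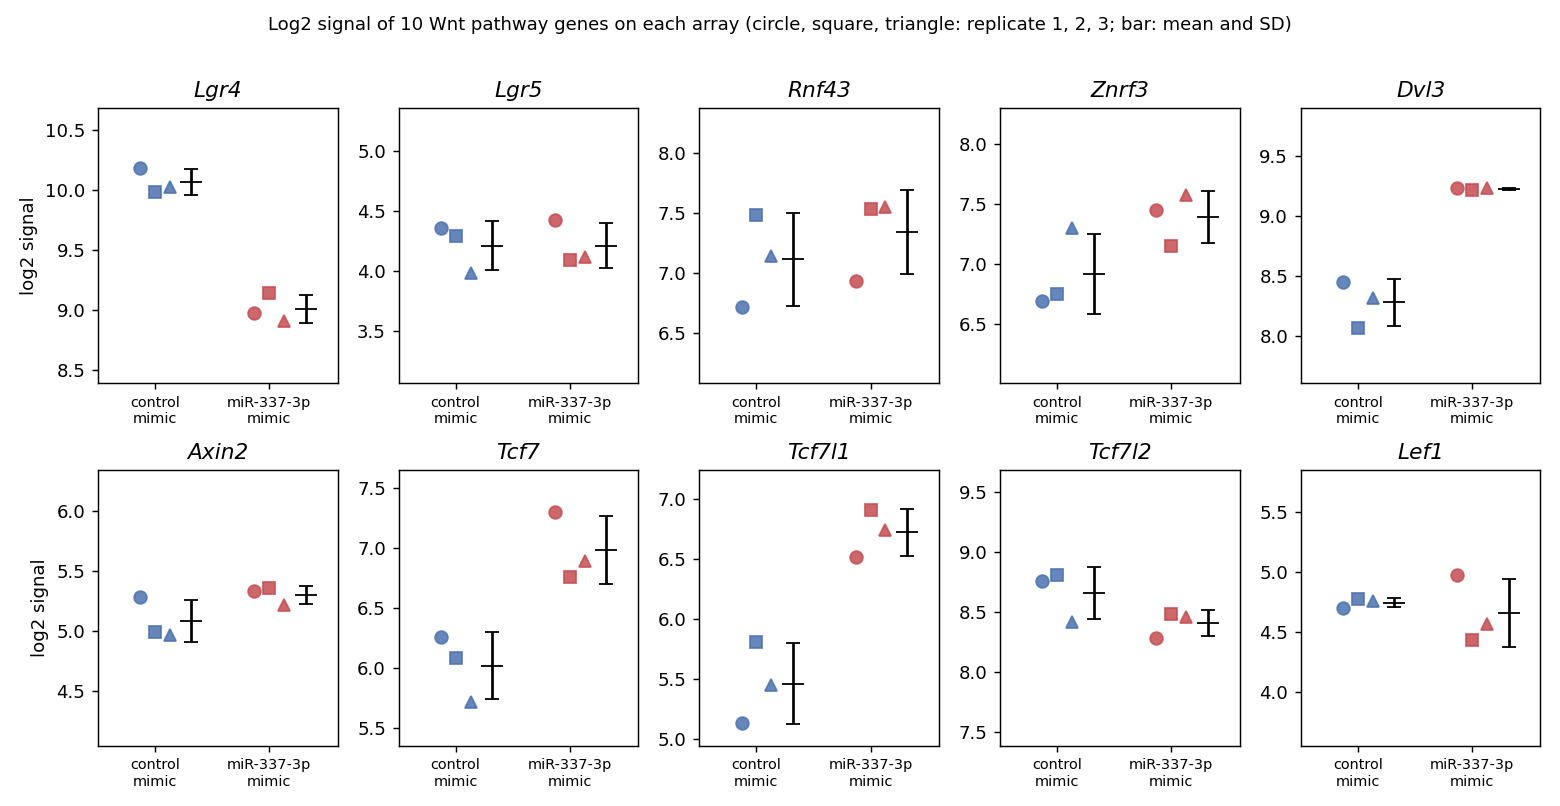
Log2 signal (y axis, each panel spanning the same number of log2 units) of the 10 genes on the 3 control mimic arrays (blue) and the 3 miR-337-3p mimic arrays (red), with replicates 1, 2 and 3 as circles, squares and triangles and the mean and SD of each group as black bars. The groups stand apart for Lgr4, Dvl3, Tcf7 and Tcf7l1 and overlap for the other 6 genes; heights of different genes are not comparable, since each has its own probes.

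Lgr4, the receptor through which R-spondins act in many epithelia, read 10.19, 9.98 and 10.03 log2 units in control replicates 1 to 3. In mimic replicates 1 to 3 it read 8.98, 9.14 and 8.91, so the highest mimic array lay well below the lowest control array. The means were 10.07 ± 0.11 and 9.01 ± 0.12 (SD, n = 3 arrays each). Lgr4 fell by 1.06 on the log2 scale (SE 0.13), with a 95% interval from -1.35 to -0.77, which is to 0.480 of the control level with an interval from 0.392 to 0.588 (limma adjusted p = 0.00626). Differences between arrays of the same replicate number were -1.21, -0.84 and -1.12. The call held in the 6 fits that left out 1 array each, with adjusted p from 0.0151 to 0.0327 in limma.

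Lgr5, the sister receptor that marks stem cells of the intestine and pericentral hepatocytes, read 4.36, 4.29 and 3.98 in control samples. The mimic samples read 4.43, 4.09 and 4.12, within much the same range. All 6 values lay below the array's median over all genes, which ran from 4.83 to 5.01, and the files give no detection call, so this level may be background and a fall could hardly show. The log2 difference was 0.00098 with a 95% interval from -0.36 to 0.36 (limma adjusted p = 0.999).

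Lgr6, the remaining receptor of the family and not among the 10 genes, moved opposite to Lgr4. It read 5.67, 5.72 and 5.82 in control and 6.63, 6.59 and 6.77 in mimic samples. Lgr6 rose by 0.92 (SE 0.12, limma adjusted p = 0.00744), and it passed in the 6 fits that left out 1 array (adjusted p up to 0.0406). Within each array the log2 ratio of Lgr6 to Lgr4 shifted by 1.98 between the groups, from -4.33 ± 0.17 in control to -2.35 ± 0.21 in mimic samples (SD, n = 3 each). The level of such a ratio depends on the probes and only its shift can be read. The groups did not overlap, and the exact permutation test, two-sided, gave p = 0.1, the smallest p that 3 against 3 arrays allow. Every mimic array lay above every control array for Lgr6 and below every control array for Lgr4, so this outcome was fixed beforehand. The test of the ratio therefore adds no evidence beyond the genes themselves. This ratio and the 2 ratios of Tcf genes given further on were chosen after the values were seen, and adjusted over these 3 each p stayed at 0.1.

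Rnf43, 1 of the pair of ubiquitin ligases that the Lgr receptors hold in check, read 6.71, 7.48 and 7.14 in control samples. In mimic samples it read 6.93, 7.53 and 7.55, so the groups overlapped over most of their range. Its log2 difference of 0.23 (SE 0.23) had a 95% interval from -0.31 to 0.76 and did not pass (limma adjusted p = 0.789). Replicate 1 was the lowest array of both groups, and differences within a replicate number were 0.22, 0.05 and 0.41.

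Znrf3, the other ligase, read 6.69, 6.75 and 7.30 in control and 7.45, 7.15 and 7.57 in mimic samples. Control replicate 3 lay above mimic replicate 2, which is where the groups overlapped. The log2 difference was 0.48 (SE 0.19) with a 95% interval from 0.04 to 0.92, and it did not pass over all genes (limma unadjusted p = 0.0362, adjusted p = 0.280). All 3 differences within a replicate number were above 0, at 0.76, 0.40 and 0.28. With the replicate number as a block the adjusted p was 0.0688, still above the threshold.

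Dvl3, which carries the signal from Frizzled to the destruction complex, read 8.45, 8.07 and 8.31 in control samples. It read 9.23, 9.22 and 9.23 in mimic samples, a spread far narrower than in the control group. Means were 8.28 ± 0.19 and 9.23 ± 0.0069 (SD, n = 3 each). Dvl3 rose by 0.95 (SE 0.14), with a 95% interval from 0.64 to 1.26, or 1.93-fold (interval 1.56 to 2.39, limma adjusted p = 0.00969). It passed in the 6 fits that left out 1 array each (adjusted p from 0.0271 to 0.0354). Its paralogs Dvl1 and Dvl2, named after their values were seen, had log2 differences of -0.09 (95% interval -0.38 to 0.20, limma adjusted p = 0.869) and 0.13 (interval -0.28 to 0.54, adjusted p = 0.866). Those intervals lie below the interval of Dvl3, though the difference between paralogs was not tested.

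Axin2, a scaffold of the destruction complex and a widely used readout of beta-catenin activity because it is itself a target, read 5.28, 4.99 and 4.97 in control samples. The mimic samples read 5.33, 5.36 and 5.22, and control replicate 1 lay among them. Its log2 difference of 0.22 (SE 0.13) had a 95% interval from -0.09 to 0.53 and did not pass (limma adjusted p = 0.544). The interval leaves room for a rise of up to 1.44-fold and for a fall to 0.943 of the control level. Its signal lay above the array medians in all 6 arrays, by a small margin.

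Among the 4 DNA-binding factors, Tcf7l1 and Tcf7 rose and Tcf7l2 and Lef1 were not called. Tcf7l1, best known as a repressor of Wnt targets in stem and progenitor cells, read 5.13, 5.80 and 5.45 in control samples. It read 6.51, 6.91 and 6.74 in mimic samples, with every mimic array above every control array. Means were 5.46 ± 0.34 and 6.72 ± 0.20 (SD, n = 3 each). Tcf7l1 rose by 1.26 (SE 0.19), with a 95% interval from 0.83 to 1.70, or 2.40-fold (interval 1.77 to 3.24, limma adjusted p = 0.0124). It passed in the 6 fits that left out 1 array each (adjusted p from 0.0111 to 0.0454).

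Tcf7, the factor first described in T cells and itself a Wnt target in several tissues, read 6.26, 6.08 and 5.71 in control samples. The mimic samples read 7.30, 6.75 and 6.89, again without overlap. Means were 6.02 ± 0.28 and 6.98 ± 0.29 (SD, n = 3 each). Tcf7 rose by 0.96 (SE 0.19), with a 95% interval from 0.52 to 1.41, or 1.95-fold (interval 1.44 to 2.65, limma adjusted p = 0.0346). This call was lost whichever array was left out, at limma adjusted p = 0.0692, 0.0792 and 0.0901 without control replicates 1, 2 and 3 and 0.0860, 0.0560 and 0.0777 without mimic replicates 1, 2 and 3. The log2 difference of Tcf7 was 0.80 to 1.09 in those fits. Fewer genes rose in them over the whole array, 150 to 363 against 584 with all 6 arrays.

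Tcf7l2, the TCF factor tied to the metabolic programme of the adult liver, read 8.75, 8.81 and 8.41 in control samples. It read 8.28, 8.48 and 8.46 in mimic samples, with control replicate 3 among them. The log2 difference was -0.25 (SE 0.15) with a 95% interval from -0.59 to 0.08 (limma adjusted p = 0.517). Lef1, the remaining factor, read 4.70, 4.77 and 4.75 in control and 4.97, 4.43 and 4.56 in mimic samples, below the array median in all 6, so it too may be at background. Its log2 difference was -0.09 with a 95% interval from -0.45 to 0.27 (limma adjusted p = 0.902). Transcript clusters give 1 value per gene, and isoforms of Tcf7, Tcf7l2 and Lef1 with and without the beta-catenin binding region cannot be told apart here.

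Ratios of TCF genes were also read within each array. The log2 ratio of Tcf7l1 to Tcf7l2 moved from -3.20 ± 0.37 in control to -1.69 ± 0.10 in mimic samples (SD, n = 3 each), a shift of 1.51. The log2 ratio of Tcf7 to Tcf7l2 moved from -2.64 ± 0.13 to -1.43 ± 0.39, a shift of 1.22. The groups did not overlap for either ratio, and each exact permutation test, two-sided, gave p = 0.1, the smallest this design allows.

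**Figure D2:**
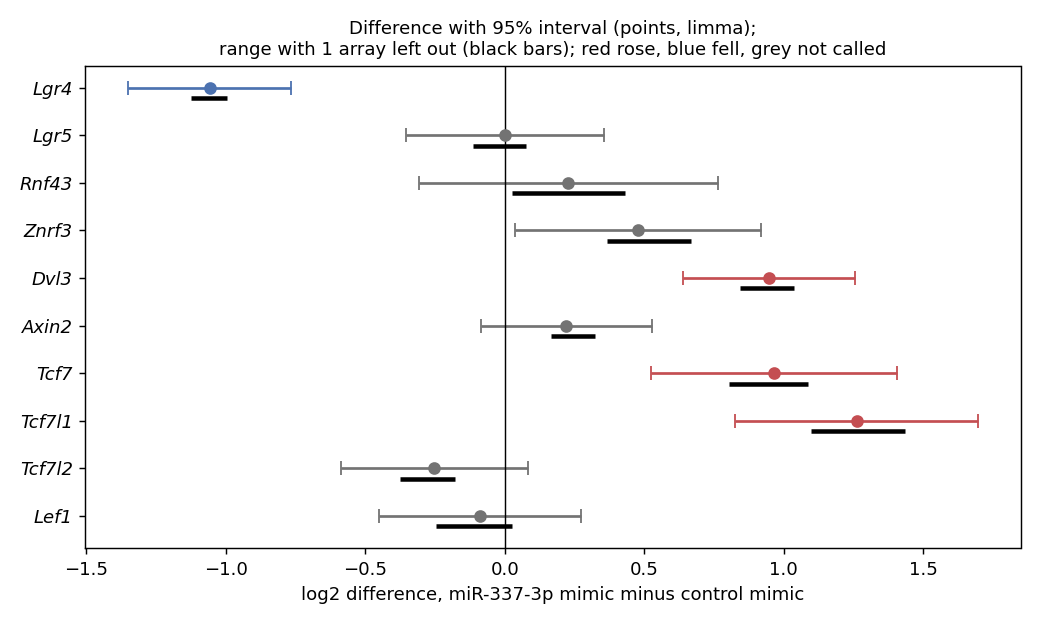
Log2 difference between miR-337-3p mimic and control mimic (x axis) for each of the 10 genes, with the 95% interval of the limma fit; black bars give the range of the difference when 1 array is left out. Lgr4 lies to the left of 0 at -1.06 and Dvl3, Tcf7 and Tcf7l1 to the right at 0.95, 0.96 and 1.26, while the interval of Znrf3 narrowly misses 0 and those of the remaining 5 genes include it.

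The rest of the pathway was read from 137 other genes in 11 lists by role, of which 5 rose and 2 fell in limma. Of all genes tested 1.89% rose and 1.68% fell, and these shares also belong beside the called counts of each list below. The median log2 difference of the 137 was 0.07 against 0.02 over all genes tested. Unadjusted p-values under 0.05 were found for 22 higher and 6 lower genes of the 137, and for 15.1% of all genes tested, 8.7% higher and 6.38% lower in mimic samples. With the replicate number as a block 11 of the 137 rose and 5 fell, where 8.58% of all genes tested were called in that fit, 4.7% rising and 3.88% falling.

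Ligands and their partners gave no call. Of 19 Wnt genes 0 rose and 0 fell in limma, 1 was higher at an unadjusted p under 0.05 (8.7% of all genes tested), and log2 differences ran from -0.08 to 0.39. Wnt10a had the smallest p, at 0.39 (SE 0.17, limma adjusted p = 0.318). Of 2 genes for Wnt secretion and 4 R-spondin genes none was called, with Porcn, which attaches the lipid to Wnt proteins, at 0.35 (adjusted p = 0.247, unadjusted p = 0.0289) and Rspo1 at 0.31 (adjusted p = 0.323, unadjusted p = 0.0475). All 4 R-spondin genes lay above 0, with a median of 0.25, where 16665 of the 30927 genes tested lay above 0. Porcn and Rspo1 were the only genes of the secretion and R-spondin lists with an unadjusted p under 0.05. Of 15 secreted inhibitors 0 were called and 2 were higher at an unadjusted p under 0.05, against 8.7% of all genes tested. The inhibitor gene Dkk2 had the smallest p among them, at 0.52 (SE 0.19, adjusted p = 0.211). Many genes of these lists were dim. Wnt8b, Wnt5a, Wnt3 and Wnt2 had means from 3.41 to 4.43 in both groups, below the array medians. So did the inhibitor genes Frzb, Sfrp4, Sfrp5 and Sfrp1, from 3.65 to 4.01. Such signals may be background, where a fall could hardly show.

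Among 16 receptors, Lgr6 was the 1 gene called, as given above, and unadjusted p-values under 0.05 went with 4 higher genes and 1 lower, against 8.7% and 6.38% of all genes tested. The co-receptor gene Lrp5 had a log2 difference of 0.52 (limma adjusted p = 0.0798) and Fzd2, which encodes a Frizzled, 0.84 (adjusted p = 0.0908). Both passed with the replicate block, at adjusted p = 0.0319 and 0.0268. Lrp6, the other co-receptor gene, had a log2 difference of -0.40 (adjusted p = 0.146, 0.0689 with the block). Lrp5, Lrp6 and Fzd2 were named after their values were seen.

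Of the cytoplasmic genes, 1 of 10 transducers rose and 0 of 11 destruction complex genes were called. Csnk1e, a casein kinase that acts on Dishevelled, rose by 0.64 (SE 0.14, limma adjusted p = 0.0490), a call lost whichever array was left out (adjusted p from 0.0585 to 0.172). Amer1, which binds Apc and Axin at the membrane, had the smallest p of the destruction complex at 0.66 (SE 0.17, adjusted p = 0.0879, 0.0145 with the block), and 2 of the 11 genes were higher at an unadjusted p under 0.05, against 8.7% of all genes tested. Ctnnb1, which encodes beta-catenin and was named after its value was seen, had means of 11.47 ± 0.13 under control and 11.71 ± 0.09 under miR-337-3p mimic (SD, n = 3 each). Its log2 difference of 0.23 had a 95% interval from -0.06 to 0.52 (limma adjusted p = 0.476). The arrays measure its transcript and not the stabilised protein through which the pathway acts.

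Among 17 nuclear cofactors, 1 rose. Ctnnbip1, which encodes an inhibitor of the contact between beta-catenin and TCF factors, had means of 5.79 ± 0.06 under control and 6.34 ± 0.04 under miR-337-3p mimic (SD, n = 3 each). It rose by 0.54 (SE 0.11, limma adjusted p = 0.0417), a call lost whichever array was left out (adjusted p from 0.0963 to 0.131). The Tle corepressor genes, named after their values were seen, differed among themselves. Tle1 was lower by a log2 difference of -0.77 (limma adjusted p = 0.136) and Tle4 by -0.76 (0.279), while Tle2 stood at 0.69 (0.0941) and Tle6 at 0.48 (0.590), none of them called. With the replicate block these 4 passed, with adjusted p from 0.0183 to 0.0399, as did the beta-catenin cofactor gene Bcl9 at 0.60 (0.0202). Tle3, at 0.30 (limma adjusted p = 0.433, 0.191 with the block), passed in neither fit. The same held for Aes of this list, at -0.09 (0.864, 0.717 with the block).

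Of 21 Wnt target genes 2 rose and 1 fell. Ccnd1, the gene of the cell cycle driver cyclin D1, read 9.86, 10.21 and 9.58 in control and 11.40, 11.17 and 10.91 in mimic samples. It rose by 1.27 (SE 0.19, limma adjusted p = 0.0124) and was lost without control replicate 1 (0.0614). Cd44, a receptor for hyaluronan, rose by 0.89 (SE 0.15, adjusted p = 0.0194) and was lost without control replicate 1 (0.0804) or mimic replicate 2 (0.0581) or 3 (0.0624). Cdx2, a transcription factor of the intestinal epithelium, read 8.62, 8.84 and 8.45 in control and 6.96, 7.33 and 7.05 in mimic samples. Cdx2 fell by 1.52 (SE 0.16, limma adjusted p = 0.00373) and passed in the 6 fits that left out 1 array. The list's median was 0.07, with a range from -1.52 to 1.27. With the block the target gene Edn1, named after its value was seen, passed as well, at -0.94 (adjusted p = 0.00537, against 0.159 without the block).

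None of the 12 targets known from pericentral hepatocytes was called in limma, and 0 had an unadjusted p under 0.05. Among them Cyp2e1, Rgn, Slc1a2, Cyp1a2 and Rhbg had means from 3.85 to 4.70 in both groups, below the array medians. These signals may be background, where a fall could hardly show. Cyp27a1, a sterol hydroxylase gene, had the smallest p, at 0.38 (SE 0.21, adjusted p = 0.478). Glutamine synthetase (Glul), the classical pericentral target, named after its value was seen, had means of 9.82 ± 0.13 under control and 9.73 ± 0.12 under miR-337-3p mimic (SD, n = 3 each). Its log2 difference of -0.09 had a 95% interval from -0.39 to 0.21.

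Of 10 planar polarity genes, which belong to the branch of Wnt signalling that works without beta-catenin, 1 fell. Daam1, a formin that links Dishevelled to the actin cytoskeleton, fell by 0.84 (SE 0.16, limma adjusted p = 0.0300), and passed in 1 of the 6 fits that left out an array, that without control replicate 2 (0.0484, up to 0.0933 in the others). Of the other 9 members, 8 lay above 0, and 4 of these had an unadjusted p under 0.05 with none called, against 8.7% of all genes tested that were higher at that threshold. Over all 30927 genes tested, 16665 lay above 0.

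**Figure D3:**
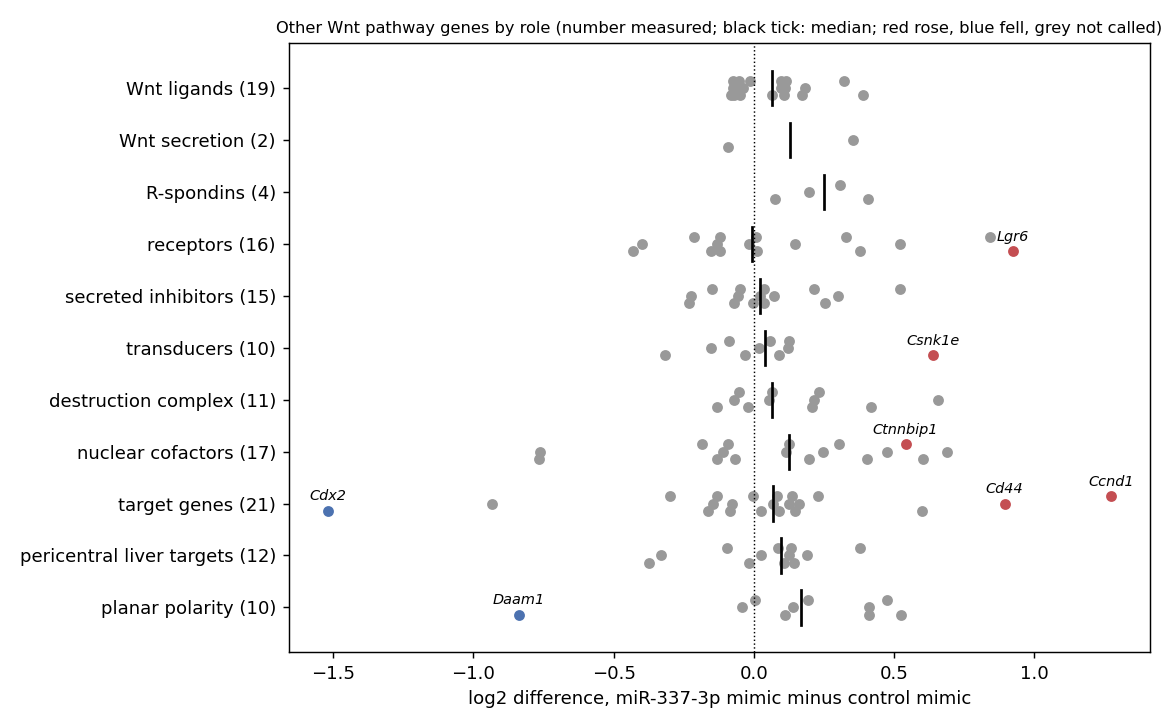
Log2 difference between miR-337-3p mimic and control mimic (x axis) of the other Wnt pathway genes, 1 point per gene, grouped by role, with the number measured in brackets and the median of each list as a black tick. Red points rose and blue points fell at an adjusted p under 0.05 and are named; most points lie near 0, and called genes appear among the receptors, transducers, nuclear cofactors, target genes and planar polarity genes.

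Cell type markers were read on the same arrays. In control samples the epithelial and hepatic genes Krt8, Krt18, Cdh1, Epcam and Hnf4a had mean signals of 11.97, 11.94, 11.25, 10.05 and 10.04, Afp and Alb both read 6.54, and Dlk1, a surface protein of hepatoblasts, read 4.71, below the array medians. The summed signal of the 10 hepatoblast markers was 13.62 to 13.74 log2 units in control and 13.56 to 13.73 in mimic samples, and of those named here Epcam fell in limma. Sums were taken over unlogged signals and mostly follow the brightest genes of a list, so they say little of the dimmer ones. These were Krt8, Krt18 and Cdh1 here, Vil1 in the intestinal list and Cd68 in the hematopoietic list. Alb had a mean of 5.39 in mimic samples, a log2 difference of -1.14 (SE 0.34) that did not pass (limma adjusted p = 0.127) but passed with the replicate block (0.0249). Of 5 intestinal markers 2 fell (Cdx2 and Vil1) and 0 rose, and their summed signal was 10.93 to 11.08 in control and 9.56 to 10.17 in mimic samples, lower in each mimic sample than in any control sample, as was Lgr4. Vil1 was no longer called when control replicate 1, control replicate 3 or mimic replicate 3 was left out (adjusted p up to 0.0868). Lyz1 (control mean 4.15, mimic mean 3.76) and Olfm4 (3.80 and 3.65), also in the intestinal list, had means below the array medians and may be background. Of 4 hematopoietic markers 1 rose, Cd68, from 6.94 to 8.12 (lost without control replicate 1 or 3 or without mimic replicate 2 or 3, adjusted p up to 0.115), and their sum was 7.02 to 7.56 in control and 7.99 to 8.67 in mimic samples. Ptprc and Emr1, which define blood cells and macrophages, had means from 3.22 to 3.79, below the array medians, in both groups. Of 5 endothelial markers 0 were called (summed signal 6.41 to 6.54 against 6.32 to 6.55), and of 5 mesenchymal markers 1 rose, Col1a1, by 0.59 (7.29 to 7.34 against 7.31 to 7.51), lost whichever array was left out (adjusted p up to 0.118). The endothelial markers had means from 3.30 to 4.66 over both groups, below the array medians, so these signals may be background. The part of these markers in the results on Wnt genes was not tested.

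**Figure D4:**
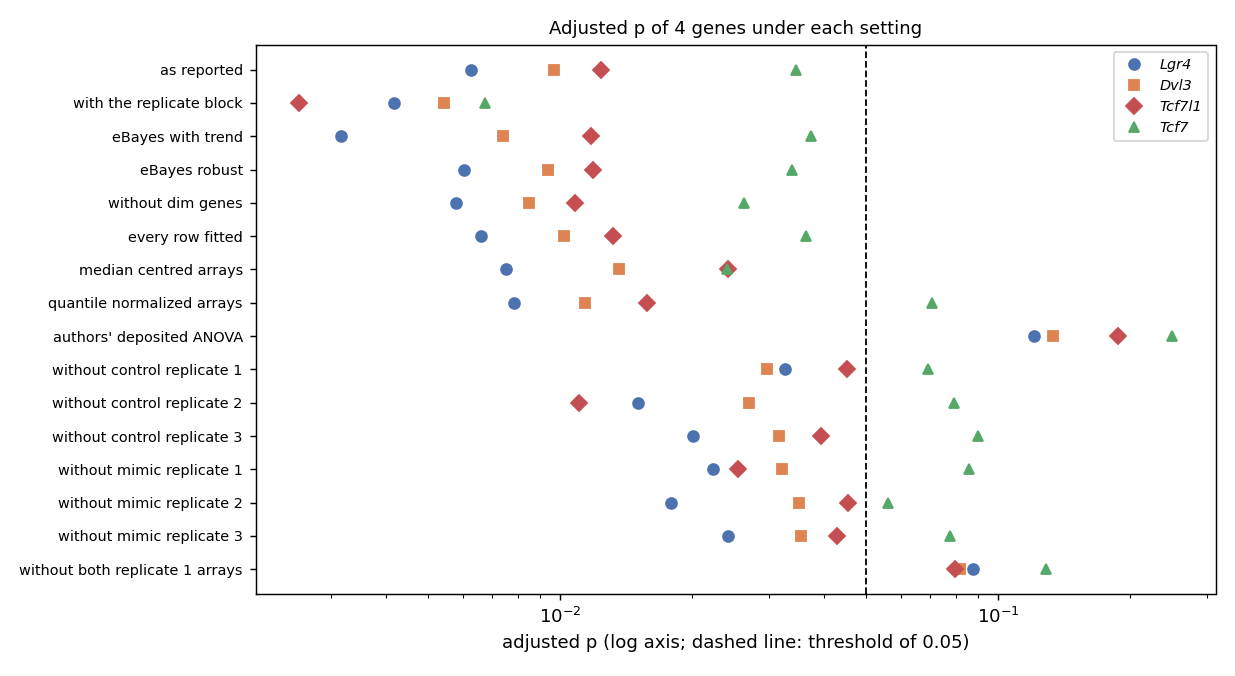
Adjusted p (x axis, log scale, with the threshold of 0.05 dashed) of Lgr4, Dvl3, Tcf7l1 and Tcf7 under each of 16 settings (y axis). Lgr4, Dvl3 and Tcf7l1 stay left of the line except in the authors' deposited test and without both replicate 1 arrays; Tcf7 crosses it in 9 of the 15 alternatives.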

How the data were processed

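Per the labels' protocols, Trizol-extracted total RNA (6 ug) was turned into biotinylated cRNA by the Affymetrix protocol. Sample titles gave the group and replicate number of the 6 arrays. Array design and normalization were not given in the sources used here. Log2 signals were deposited by the authors for 41345 transcript clusters on each array, and these were taken as normalized. The authors' deposited comparison table (34472 rows) holds, per the file headers, bi-weight group averages on the log2 scale, fold changes as a signed score and as a linear ratio, and p-values of an ANOVA before and after FDR adjustment. Log2 differences given with the deposited ANOVA are differences of these bi-weight averages, which can differ from those of plain means. Recomputing that ANOVA gave p-values within 0.001 of the deposited ones for 100% of genes.

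Symbols came from that table through the transcript cluster ID. A gene with several rows (909 genes) was read from its brightest row, leaving 30927 genes. Groups were compared on the log2 values by limma (version 3.58.1, R 4.3.3, lmFit and eBayes without trend or robust options), keeping dim genes, with Benjamini-Hochberg adjustment over all genes. SEs are those of limma, with a median of 0.15, and precision is limited by the number of arrays. Single ratios were tested with an exact permutation test over arrays. Other software was data.table (1.17.8), pandas 2.3.3, numpy 2.4.6, matplotlib 3.10.9 and Python 3.11.15, and the fit was tested on simulated data.

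The 10 genes and all lists were chosen with earlier results of these data known. Besides the 10, the text names every called gene of a pathway list, or that with the smallest p where a list has none, the 3 genes of most similar profile to each called member, and genes said to be named later. Similar profiles were sought only after some kinds of gene had been dropped by symbol. Pseudogenes and genes of olfactory receptors or microRNAs were among them.

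Across genes, which are not independent replicates, deviations from group means were correlated between arrays of the 2 groups. Same-numbered arrays had correlations of 0.431, 0.370 and 0.442, and other pairs lay between -0.292 and -0.119. Same-numbered arrays thus appeared paired, which comes from the values, not from the labels. The main limma fit and the permutation tests still took the groups as unpaired, and a replicate block was fitted as an alternative. The alternatives were this replicate block, trend or robust variance, a filter on dim genes, every row fitted, median centring, quantile normalization, the authors' deposited ANOVA, and leaving out each array or both arrays numbered 1. Some genes of the cell type marker lists are not reported here individually.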

Additional observations from a re-analysis of the deposited data

How the results depend on the processing

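Lgr4, Dvl3 and Tcf7l1 kept their direction in all 15 alternatives and their call in 13, losing it in the authors' deposited ANOVA (log2 differences of -1.04, 0.94 and 1.27, FDR p-values of 0.121, 0.133 and 0.187) and without both arrays numbered 1 (-0.98, 1.03 and 1.20, limma adjusted p = 0.0876, 0.0819 and 0.0796), where fewer arrays remain. Tcf7 kept its direction but its call in 6 of 15: it read 0.86 (FDR p-value 0.249) in the deposited ANOVA, 0.93 (adjusted p = 0.129) without both arrays numbered 1 and 0.89 (0.0708) after quantile normalization, and 0.80 to 1.09 with 1 array left out. Counts of members were then 0 rising and 0 falling in the deposited ANOVA, where all genes gave 2 rising and 2 falling and other pathway genes 0 and 0. Without both arrays numbered 1 members gave 0 and 0, all genes 26 rising and 51 falling, and pathway genes 0 and 0. With the replicate block all genes gave 1454 rising and 1200 falling and pathway genes 11 and 5; the block changed no call among the 10 members. Median centring gave 351 rising genes in all, and 3 rising and 1 falling pathway genes. It moved the median difference of all genes by -0.02. With 1 array left out, members gave 2 rising and 1 falling, all genes 150 to 363 rising and 172 to 358 falling, and pathway genes 1 to 4 rising and 1 to 2 falling. The sign turned for Lgr5 after median centring (-0.016), after quantile normalization (-0.0017), in the authors' deposited bi-weight averages (-0.21) and without both arrays numbered 1 (-0.032). With 1 array left out it turned for Lgr5 (-0.11 to 0.077), for Lef1 (-0.25 to 0.025) and for Dvl2 (-0.044 to 0.30), none of which was called. Rnf43, Znrf3, Axin2 and Tcf7l2 kept their direction and stayed uncalled in all 15. Lgr5 and Lef1 gave no value without dim genes, since both are below the median signal. Beyond the cases named, the causes were not tested. The signals of Lgr5 and Lef1 may be background, which no detection call in the files settles, and 3 arrays per group limit the precision of all values.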

Other observations

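Genes were ranked by how close their profile over the 6 arrays lay to that of each called Wnt gene. Closeness was the root mean square difference between mean-centred log2 profiles, in log2 units. Some kinds of gene, among them pseudogenes and genes of olfactory receptors or microRNAs, had been dropped. Closest below therefore means closest among the genes kept. Closest to Lgr4 were Abhd6, a lipase of monoacylglycerols and endocannabinoids (0.0530), the epithelial adhesion gene Epcam (0.0646) and the sulfotransferase gene Sult1b1 (0.0660). Their log2 differences were -1.01, -0.997 and -1.04, beside -1.06 for Lgr4. Closest to Tcf7l1 were Adssl1, an enzyme of adenine nucleotide synthesis (0.0417), the phospholipid flippase gene Atp10d (0.0743) and Rin2, which acts on Rab5 (0.0807). Closest to Dvl3 were Pigu, a subunit of the enzyme that attaches proteins to GPI anchors (0.0859), the angiomotin family gene Amotl1 (0.0994) and the protein kinase A inhibitor gene Pkia (0.112). For Tcf7 they were Serinc2 (0.0905), Nrm, a nuclear envelope protein gene (0.103), and the immune checkpoint gene Cd276 (0.110). With 2 groups of 3 arrays such likeness mostly reflects a group difference of similar size.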
